A study of Mus musculus with 8 samples.

Results

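The pyruvate dehydrogenase complex and the enzymes that switch it on and off were followed in mouse liver through 10 genes. They were 4 kinase genes (Pdk1, Pdk2, Pdk3 and Pdk4), 2 phosphatase genes (Pdp1 and Pdp2) and 4 subunit genes (Pdha1, Pdhb, Dlat and Pdhx). Members were the genes whose symbol stood alone in the annotation of a probe. This gave 17 probes for 9 of the 10 genes, out of 19532 named genes in the table, and Pdp2, which had no such probe, was not analysed here. Liver RNA came from 4 mice carrying the mPer2Brdm1 mutation (Per2Brdm1 mutants) and from 4 wild-type (WT) mice, with 1 array per mouse on 1-colour Agilent arrays labelled with cyanine 3. All 8 mice belonged to 1 cohort, had a mixed 129sv and C57Bl/6 background and had been starved for 8 h before they were killed. Their age, sex and time of death were not given in the sources used here. The Brdm1 allele is known as an in-frame deletion in the protein-interaction domain of PER2, a repressor of the circadian clock, and it is carried in every tissue and not in the liver alone. The study asked about the role of Per2 in liver glycogen metabolism.

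Pyruvate dehydrogenase converts pyruvate into acetyl-CoA inside mitochondria and so commits carbon from glucose to oxidation or to fat synthesis. The kinases phosphorylate the E1 alpha subunit and switch the complex off, and the phosphatases remove the phosphate and switch it on. In the fasted liver the complex is known to be kept off, which spares pyruvate for glucose production, and Pdk4 is the kinase gene best known for its induction by fasting.

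The deposited values were on a log scale taken as base 2 and centred on the median of each probe over the 8 arrays. They give differences between mice and no levels, so that one gene's abundance could not be set against another's. Higher was taken as brighter. Each array was further shifted to a common 75th percentile, by -0.09 to -0.01 in mutants and by 0.05 to 0.07 in WT mice. The median difference over all rows, mutant minus WT, was 0.08 after this shift and 0.20 in the values as deposited. Differences below are mutant minus WT in log2 units and come from a limma fit over 28042 rows (gene means and unnamed probes), with the standard error after ± and Benjamini-Hochberg adjusted p-values over all of them. A gene is said to rise or fall where its adjusted p was under 0.05. The p-values rest on the spread between 4 mice a group, and this number limits the precision. The fit moderates the spread of each row toward that of all rows. The standard error of a row whose mice lie very close together is thereby raised. The 2 probes of Per2 went in opposite directions, -1.70 ± 0.12 for A_51_P282760 (limma over all probes, adjusted p = 0.000333) and 2.54 ± 0.13 for A_52_P536869 (adjusted p = 0.000123). Where they lie relative to the deletion was not given. WT replicates 2 and 3 stood apart in their control features, with scaled means of -0.57 and -0.28, against -0.0062 to 0.15 in mutants and 0.059 to 0.21 in the other 2 WT mice. Results are also given without these 2 mice where that ended the call of a named gene.

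The kinase genes did not move together. Pdk4 rose 4.62-fold in the mutants, while Pdk1 fell 2.42-fold and Pdk2 fell 1.42-fold, and Pdk3 did not pass. Of the 9 measured members 6 passed, which were 1 that rose and 5 that fell, or 66.7% of them. Over all rows 15.5% passed, with 6.52% higher and 8.93% lower, and 30.3% had an unadjusted p under 0.05. Among the rows that passed, 42.2% were higher after the shift and 61.4% in the values as deposited. The median difference was -0.47 over the 9 members and 0.08 over all rows.

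Pdk1, a kinase known as a target of the hypoxia factor HIF-1, had scaled log2 values of -0.73, -0.68, -0.56 and -0.67 in mutant replicates 1 to 4, against 0.58, 0.60, 0.64 and 0.63 in WT replicates 1 to 4. All mutants lay well below all WT mice, and within each group the mice were close together, with SDs of 0.07 in mutants and 0.03 in WT (n = 4 each). The difference was -1.27 ± 0.09 (adjusted p = 0.00033), which placed Pdk1 at rank 61 of 28042 rows by p-value. Its 2 probes gave -1.39 ± 0.10 and -1.15 ± 0.09, and each passed on its own.

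Pdk4 was the member with the widest spread. Its scaled log2 values were 1.15, 1.45, 1.14 and 0.42 in mutant replicates 1 to 4, against -1.66, -0.42, -1.80 and -0.78 in WT replicates 1 to 4. The groups did not overlap, with mutant replicate 4 the lowest mutant and WT replicate 2 the highest WT mouse. The difference of 2.21 ± 0.36 (adjusted p = 0.00674) rested on 1 probe, and the SDs were 0.44 in mutants and 0.67 in WT (n = 4 each). The signed difference lay above that of 99.5% of all rows, yet the scatter between mice put it at rank 1314 by p-value, behind the smaller but tighter change of Pdk1.

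Pdk2, the kinase gene found in most tissues, was measured by 1 probe at -0.32, -0.13, -0.16 and -0.33 in mutant replicates 1 to 4, against 0.14, 0.23, 0.31 and 0.39 in WT replicates 1 to 4. Every mutant was below every WT mouse. It fell by 0.50 ± 0.10 (adjusted p = 0.0171). This call was close to the threshold when 1 mouse was left out, with adjusted p = 0.0519 without WT replicate 3 and 0.0502 without WT replicate 4, and without WT replicates 2 and 3 together it was 0.0967 at an unchanged size of -0.50.

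Pdk3, a kinase gene better known from testis and brain, was at 0.12, -0.035, -0.52 and 0.0058 in mutant replicates 1 to 4, against -0.15, 0.43, 0.014 and -0.12 in WT replicates 1 to 4. The groups overlapped throughout. The difference was -0.15 ± 0.19 (adjusted p = 0.584), with a 95% interval of -0.59 to 0.29, and it was 0.028 without WT replicates 2 and 3. Its 2 probes differed in sign, at 0.07 and -0.38, and neither passed.

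**Figure D1:**
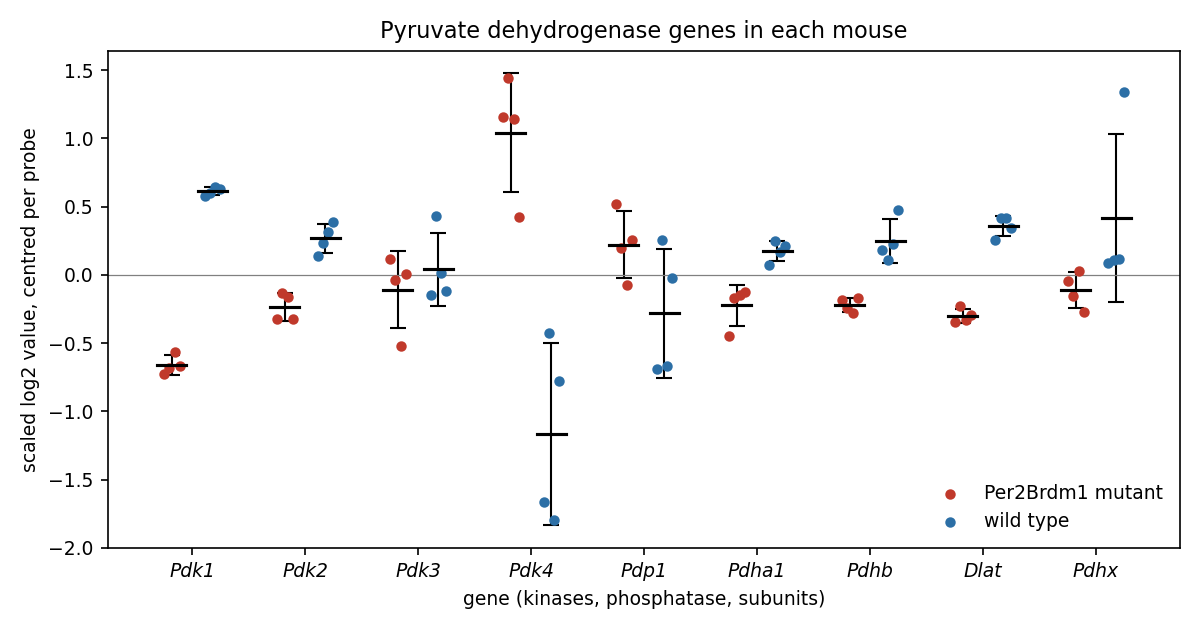
Scaled and centred log2 value of each member gene (vertical axis) in 4 Per2Brdm1 mutant mice (red, left) and 4 WT mice (blue, right), with 1 point per mouse, the mean as a bar and the SD as whiskers. Pdk4 lies between 0.42 and 1.45 in mutants and between -1.80 and -0.42 in WT, while Pdk1 is near -0.66 in every mutant and near 0.61 in every WT mouse.

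Differences between kinase genes within a mouse are untouched by a constant shift of an array, though not by quantile scaling, under which Pdk4 differed by 2.41 and Pdk1 by -1.41 between the genotypes. Pdk4 minus Pdk1 was 1.88, 2.13, 1.71 and 1.09 in mutant replicates 1 to 4, against -2.24, -1.02, -2.44 and -1.41 in WT replicates 1 to 4. The balance between these 2 transcripts thus differed by 3.48 on the log2 scale, or 11.2-fold. Pdk4 minus Pdk2 averaged 1.28 ± 0.37 in mutants and -1.43 ± 0.65 in WT (SD, n = 4 each), a shift of 2.71 or 6.55-fold. Pdk1 also moved relative to Pdk2, from which it differed by -0.42 ± 0.09 in mutants and 0.34 ± 0.08 in WT. These values describe the same 8 arrays and add no independent test.

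**Figure D2:**
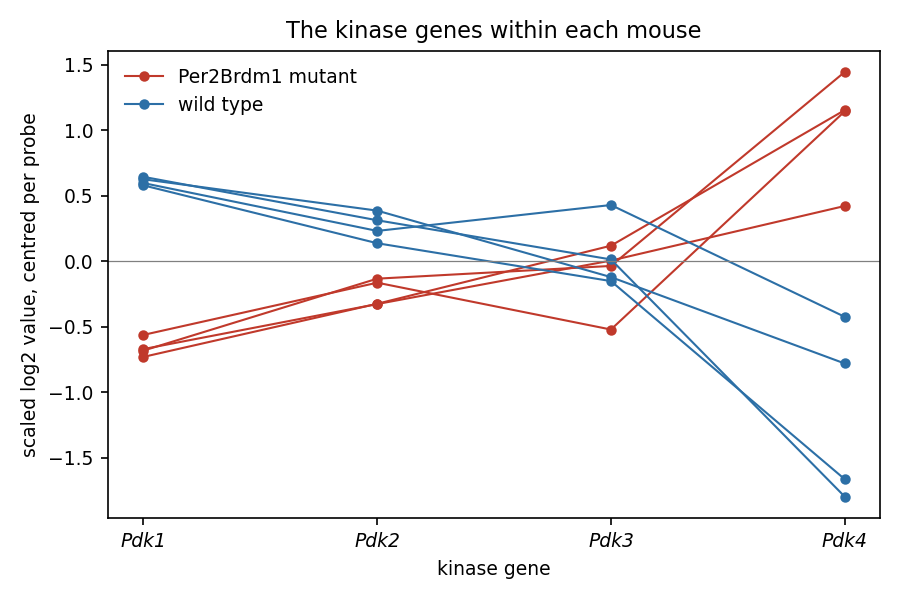
Scaled and centred log2 values (vertical axis) of the 4 kinase genes, with 1 line for each mouse, Per2Brdm1 mutants in red and WT in blue. The mutant lines start near -0.66 at Pdk1 and end above 0.42 at Pdk4, the WT lines start near 0.61 and end below -0.42, and the 2 sets cross at Pdk3.

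In the RefSeq annotation of GRCm38.p6 the kinase genes lie on 4 chromosomes, Pdk4 at chr6:5483351-5496278, Pdk1 at chr2:71873215-71903858, Pdk2 at chr11:95026258-95041371 and Pdk3 at chrX:93764616-93832150. Pdp1 lies at chr4:11958183-11966450. The subunit genes lie at chr9:50634633-50659780 (Dlat), chr14:8165991-8173303 (Pdhb), chrX:160122219-160138430 (Pdha1) and chr2:103021055-103073513 (Pdhx). The positions of the probes within these genes were not given.

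The promoter windows of the 3 kinase genes that changed are shown because their transcripts moved in opposite directions in a clock mutant. They are the RefSeq windows of 300 bases (250 before to 50 after the annotated start, build GRCm38.p6, each 5′ to 3′ on its own strand), and 9 of the 10 members matched the table, with 11 windows. Capitals mark an E-box, the letters CACGTG bound by CLOCK and its partner.
Pdk4 (chr6:5496229-5496528, minus strand): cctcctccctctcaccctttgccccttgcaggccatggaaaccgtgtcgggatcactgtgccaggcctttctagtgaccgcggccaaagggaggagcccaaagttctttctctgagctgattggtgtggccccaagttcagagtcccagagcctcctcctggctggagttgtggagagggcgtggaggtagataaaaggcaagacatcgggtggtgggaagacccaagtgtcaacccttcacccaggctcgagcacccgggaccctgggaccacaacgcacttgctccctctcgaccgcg
Pdk1 (chr2:71872974-71873273, plus strand): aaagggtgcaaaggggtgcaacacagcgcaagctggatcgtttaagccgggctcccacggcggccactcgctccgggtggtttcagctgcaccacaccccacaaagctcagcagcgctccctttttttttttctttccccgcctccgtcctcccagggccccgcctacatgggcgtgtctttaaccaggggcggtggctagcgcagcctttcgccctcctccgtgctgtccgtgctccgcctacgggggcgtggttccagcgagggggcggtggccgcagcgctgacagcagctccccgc
Pdk2 (chr11:95041322-95041621, minus strand): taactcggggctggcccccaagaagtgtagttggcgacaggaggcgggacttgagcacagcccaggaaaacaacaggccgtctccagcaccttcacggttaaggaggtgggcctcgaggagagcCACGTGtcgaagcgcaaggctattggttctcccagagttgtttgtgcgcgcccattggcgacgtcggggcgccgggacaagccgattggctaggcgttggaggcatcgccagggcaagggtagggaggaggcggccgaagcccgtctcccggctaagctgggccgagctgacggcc
The E-box in the Pdk2 window printed reads the same on both strands and starts at position -126 from the annotated start. An E-box was present in 7.15% of the 32851 windows in the table. Besides the E-box, both strands were searched for the D-box as TTATGTAA (0.938% of windows) and TTACGTAA (0.119%), the HIF core ACGTG (19.6%), the nuclear receptor half-site AGGTCA (16.3%), the estrogen-related receptor element TCAAGGTCA (0.423%), the FOXO element GTAAACA (3.65%) and the glucocorticoid half-site TGTTCT (19.0%). The Pdk4 and Pdk1 windows printed held none of these letters, and the Pdk2 window printed held the HIF core only as a part of its E-box. A second annotated Pdk2 start, with the window chr11:95040826-95041125, had no match to any of the motifs. A second annotated start of Pdk1 had TGTTCT at positions -153 and -138. Of the other members, Pdp2 held an E-box at -219, and Pdk3 and Pdhb held the HIF core alone at -53 and -248. Such matches are descriptions of the letters and not binding sites, and the windows are short.

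The phosphatase gene Pdp1, whose product is stimulated by calcium, did not pass. It was at 0.52, 0.20, -0.078 and 0.26 in mutant replicates 1 to 4, against -0.69, 0.26, -0.67 and -0.026 in WT replicates 1 to 4. WT replicates 1 and 3 were low, and the other 2 WT mice lay within the mutant range. The difference was 0.50 ± 0.25 (adjusted p = 0.198), with a 95% interval of -0.07 to 1.08, so the interval reaches from a small fall to a rise of more than 1 log2 unit. The 2 probes gave 0.71 ± 0.40 and 0.30 ± 0.33.

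Among the 4 subunit genes 3 fell, by smaller amounts than Pdk1, and the fourth was lower without passing. Dlat, which encodes the E2 acetyltransferase core, had the clearest fall. It was at -0.35, -0.23, -0.33 and -0.29 in mutant replicates 1 to 4, against 0.26, 0.42, 0.42 and 0.34 in WT replicates 1 to 4. The groups were separated by more than the range within either of them. The difference was -0.66 ± 0.09 (1.58-fold lower, adjusted p = 0.00359), and both of its probes fell, by 0.89 ± 0.08 and 0.43 ± 0.10.

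Pdhb, the E1 beta subunit gene, was at -0.19, -0.24, -0.28 and -0.17 in mutant replicates 1 to 4, against 0.18, 0.11, 0.23 and 0.48 in WT replicates 1 to 4. It fell by 0.47 ± 0.11 (adjusted p = 0.0269), with no overlap between the groups. Probe A_52_P568792 fell by 0.70 ± 0.12, whereas A_51_P321921 differed by -0.23 ± 0.11 (adjusted p = 0.183) and did not pass. The gene call was lost in the values as deposited (adjusted p = 0.0834) as well as on leaving out each mutant, WT replicate 3 or WT replicate 4 alone (differences -0.49 to -0.39, adjusted p = 0.051 to 0.0696). Without WT replicates 2 and 3 together it was -0.55 (adjusted p = 0.0701).

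Pdha1, the X-linked gene of the E1 alpha subunit that carries the regulatory phosphorylation sites, was at -0.45, -0.17, -0.15 and -0.13 in mutant replicates 1 to 4, against 0.076, 0.25, 0.17 and 0.21 in WT replicates 1 to 4. Mutant replicate 1 was the lowest by a wide margin, and the groups did not overlap. The fall of 0.40 ± 0.11 passed narrowly (adjusted p = 0.0475). It missed the threshold whichever of the 8 mice was left out (differences -0.43 to -0.32, adjusted p = 0.0615 to 0.111), without WT replicates 2 and 3 together (adjusted p = 0.212) or in the values as deposited (-0.28, adjusted p = 0.124). Of its 2 probes, A_52_P581435 fell by 0.48 ± 0.12 and A_51_P321391 differed by -0.32 ± 0.10 (adjusted p = 0.0798).

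Pdhx, the gene of the E3-binding protein that tethers the E3 subunit to the core, was at -0.046, -0.15, 0.029 and -0.28 in mutant replicates 1 to 4, against 0.091, 0.11, 0.12 and 1.34 in WT replicates 1 to 4. All mutants lay below all WT mice, but WT replicate 4 was far above the other WT mice. The difference was -0.53 ± 0.29 (adjusted p = 0.222), with a 95% interval of -1.20 to 0.14, and it was -0.22 (adjusted p = 0.217) without WT replicate 4. The high value came from 1 of its 3 probes, A_52_P539454, at 3.58 in that mouse, against -0.17 to 0.36 in mutants and -0.20 to 0.06 in the other WT mice. Probe A_51_P149946, annotated to a RefSeq transcript, fell by 0.49 ± 0.09 (limma over all probes, adjusted p = 0.00952), and A_52_P168047, annotated to the same transcript, differed by -0.28 ± 0.14 (adjusted p = 0.197).

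Fitted one by one over 41174 probes, 8 of the 17 member probes fell, 1 rose and 8 did not pass. Over all probes 16.3% passed, with 6.36% higher and 9.92% lower, and 31.0% had an unadjusted p under 0.05. The groups did not overlap in 10 of the 17 member probes, against 25.1% of all probes (9.22% higher and 15.9% lower). Of the 9 subunit probes 5 fell, and every gene of a subunit had at least 1 of them. The groups did not overlap in 7 of the 9 member genes, 1 higher and 6 lower, against 24.6% of all rows (14.6% lower and the rest higher). For a single value of this kind the exact two-sided permutation test over the 8 mice gives p = 0.0286, the smallest that 4 against 4 allows.

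**Figure D3:**
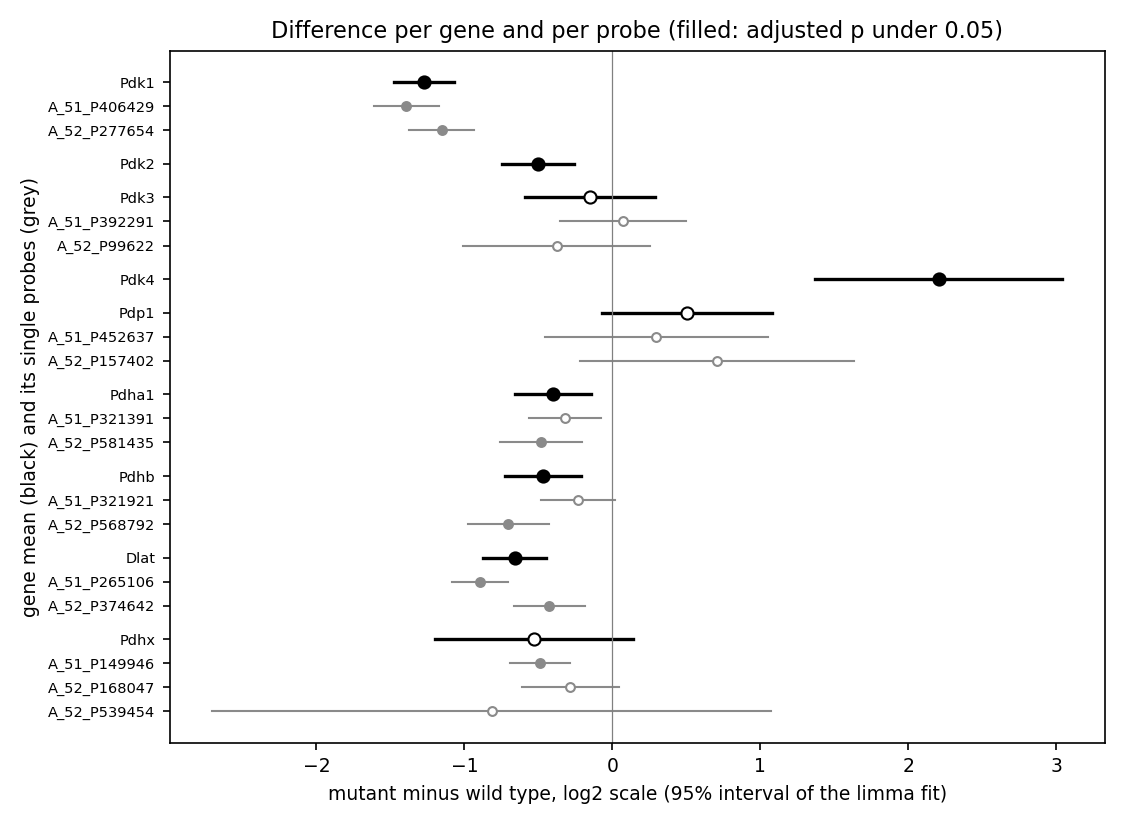
Mutant minus WT difference on the log2 scale (horizontal axis) with its 95% interval from limma, for each member gene (black) and, where a gene had several probes, for each probe (grey), with filled points at an adjusted p under 0.05. Pdk4 lies at 2.21 and Pdk1 at -1.27, the subunit genes lie between -0.66 and -0.40, and the Pdhx probe A_52_P539454 has the widest interval.

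Lipoic acid is the swinging arm of the E2 core, and its synthesis and transfer need Lias, Lipt1 and Lipt2, with Gcsh as the carrier protein of the glycine cleavage system. Of 6 measured genes in a list of the E3 subunit, the phosphatase regulator Pdpr and lipoylation 4 fell and 0 rose in limma, with a list median of -0.54. Over all rows 6.52% were higher and 8.93% lower, for comparison with this and the later list counts. Gcsh fell by 0.65 ± 0.11, Lipt1 by 0.56 ± 0.13 and Lias by 0.53 ± 0.12 (adjusted p = 0.00775, 0.0238 and 0.0248). The other was Dld, the E3 subunit gene, at -0.57 ± 0.15 (adjusted p = 0.0391), named after its value was seen. The Dld call was kept when mutant replicate 3 was left out and lost when any other single mouse was (adjusted p = 0.0508 to 0.0944), as it was in the values as deposited (adjusted p = 0.0808). The calls of Lipt1 and Lias were lost in the values as deposited (adjusted p = 0.073 and 0.0612), that of Lipt1 when mutant replicate 1 or 2 or WT replicate 1, 3 or 4 was removed, and that of Lias when mutant replicate 4 or a single WT mouse was removed (adjusted p = 0.0528 to 0.0675). Without WT replicates 2 and 3 together Gcsh, Lipt1, Lias and Dld all missed the threshold (adjusted p = 0.0538 to 0.202).

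Of 8 genes of the sister complexes built on the same plan, the 2-oxoglutarate, branched-chain and 2-oxoadipate dehydrogenases and their regulators, 1 rose and 1 fell, with a median of -0.30. The list means were -0.22 to -0.04 in mutants and 0.05 to 0.09 in WT mice. Dhtkd1, the E1 gene of the 2-oxoadipate dehydrogenase in lysine breakdown, rose by 1.497 ± 0.101 (adjusted p = 0.000317). Bckdhb, the E1 beta gene of the branched-chain complex, fell by 0.79 ± 0.18 (adjusted p = 0.0218). The E2 gene of that complex, Dbt, differed by -0.99 ± 0.29 (adjusted p = 0.0592) and passed without mutant replicate 2 (-1.27, adjusted p = 0.0087). Bckdhb no longer passed when 1 mutant, WT replicate 2 or WT replicate 3 was removed (adjusted p = 0.0512 to 0.055), and without WT replicates 2 and 3 together its difference was -0.49 (adjusted p = 0.0576).

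Of 11 measured genes for the entry and other fates of pyruvate 5 fell and 0 rose in limma, with a median of -0.63. Pklr, the liver pyruvate kinase that makes pyruvate, fell by 1.96 ± 0.17 (adjusted p = 0.00074), Mpc1, a subunit of the mitochondrial pyruvate carrier, by 0.63 ± 0.10 (adjusted p = 0.00698), and the alanine aminotransferase gene Gpt by 0.64 ± 0.12 (adjusted p = 0.013). The monocarboxylate transporter gene Slc16a7 (-0.85 ± 0.16) and the malic enzyme gene Me1 (-1.02 ± 0.23) were the other 2, named after their values were seen. Pyruvate carboxylase, Pcx, which sends pyruvate to gluconeogenesis, differed by -0.34 ± 0.09 (adjusted p = 0.0508). The lactate dehydrogenase genes differed in sign and neither passed, with Ldha at 0.24 ± 0.13 (adjusted p = 0.208) and Ldhb at -1.07 ± 0.41 (adjusted p = 0.126). The monocarboxylate transporter gene Slc16a1 differed by 0.60 ± 0.20 (adjusted p = 0.0806, and 0.0436 in the values as deposited) and the mitochondrial malic enzyme gene Me2 by 0.34 ± 0.14 (adjusted p = 0.159, and 0.0396 without mutant replicate 1). Pcx, Ldha, Ldhb, Slc16a1 and Me2 too were named after their values were seen. Mpc1, Gpt, Slc16a7 and Me1 missed the threshold without WT replicates 2 and 3 together (adjusted p = 0.0538, 0.0671, 0.0889 and 0.143), and Me1 also on removal of mutant replicate 1, WT replicate 3 or WT replicate 4 (adjusted p = 0.0571 to 0.0628). Pcx passed after quantile scaling (-0.43, adjusted p = 0.026).

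For the use of acetyl-CoA, 3 of 10 measured genes fell and 0 rose in limma, with a median of -0.42. They were the fatty acid synthase gene Fasn (-1.29 ± 0.17, adjusted p = 0.00306), the ATP citrate lyase gene Acly (-0.64 ± 0.14, adjusted p = 0.0221) and the acetyl-CoA synthetase gene Acss2 (-0.40 ± 0.11, adjusted p = 0.0458). Fasn passed under each of the 16 other settings. Acly missed the threshold in the values as deposited (adjusted p = 0.0536) or when mutant replicate 1, 2 or 4 or WT replicate 1 or 4 was removed (adjusted p = 0.0506 to 0.0611), and Acss2 whichever of the 8 mice was removed (adjusted p = 0.0562 to 0.108) or without WT replicates 2 and 3 together (adjusted p = 0.0861).

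Known transcriptional regulators of the kinase genes were mostly not past the threshold. Of 18 measured factors 3 fell and 0 rose in limma, with a median of -0.18. Pparg, a nuclear receptor of fat storage, fell by 1.31 ± 0.14 (adjusted p = 0.00145), Esrrg, an estrogen-related receptor, by 1.02 ± 0.25 (adjusted p = 0.0312) and Nr1h4, the bile acid receptor, by 0.39 ± 0.10 (adjusted p = 0.0346). The fasting regulators best known for acting on Pdk4, named after their values were seen, gave -0.11 ± 0.11 for Ppara and 0.08 ± 0.09 for Foxo1, with 95% intervals of -0.36 to 0.14 and -0.13 to 0.30, and Ppara was 0.0086 in the values as deposited. Hif1a, whose product acts on Pdk1 and is controlled mainly at the protein level, differed by -0.23 ± 0.10 (adjusted p = 0.185, named after its value was seen). The Esrrg and Nr1h4 calls were lost in the values as deposited (adjusted p = 0.0514 and 0.122). Esrrg missed the threshold when mutant replicate 2 or 3 or a single WT mouse was removed (adjusted p = 0.0554 to 0.0712), and Nr1h4 when 1 of mutant replicates 1 to 3 or of WT replicates 2 to 4 was removed (adjusted p = 0.0654 to 0.0937). Without WT replicates 2 and 3 together they gave adjusted p = 0.145 for Esrrg and 0.144 for Nr1h4.

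Genes that respond to the same fasting signals as Pdk4 moved in both directions. Of 17 measured targets of the fatty acid receptor PPAR alpha 6 rose and 1 fell, with a median of 0.12, close to the 0.08 over all rows. The fatty acid hydroxylase genes Cyp4a10 and Cyp4a14 rose by 1.72 ± 0.18 and 2.10 ± 0.26 (adjusted p = 0.00121 and 0.00236), and the fatty acid translocase gene Cd36 fell by 1.95 ± 0.25 (adjusted p = 0.00283). The others that rose, named after their values were seen, were Acot1 (1.41), Angptl4 (0.81), Fgf21 (2.02) and Ehhadh (0.88), while Cpt1a, the gate of mitochondrial fatty acid oxidation, differed by -0.05 ± 0.12 (adjusted p = 0.777) and had no settled direction, at 0.067 as deposited and 0.016 without mutant replicate 4. Removing 1 mouse ended the calls of Ehhadh (each mouse but mutant replicate 4), Fgf21 (each but mutant replicate 4 and WT replicate 4) and Angptl4 (mutant replicate 2 and WT replicates 1 to 3), with adjusted p = 0.0562 to 0.0917. These 3 gave adjusted p = 0.158, 0.159 and 0.166 without WT replicates 2 and 3 together. Of 12 measured genes that respond to FOXO1, glucocorticoids or insulin 5 rose and 1 fell, with a median of 0.32. Igfbp1, an insulin-repressed gene, rose by 2.68 ± 0.34 and Fkbp5, a glucocorticoid-induced gene, by 1.43 ± 0.22, whereas the insulin-induced lipogenic factor gene Srebf1 fell by 1.88 ± 0.20 (adjusted p = 0.0026, 0.00514 and 0.00146). The others that rose, named after their values were seen, were Cdkn1a (3.79), Sgk1 (0.89) and G6pc (0.79). G6pc did not pass on removal of 1 of mutant replicates 1 to 3 or of WT replicates 2 and 3 (adjusted p = 0.0577 to 0.0684), and without WT replicates 2 and 3 together G6pc gave adjusted p = 0.148 and Sgk1 0.0558.

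**Figure D4:**
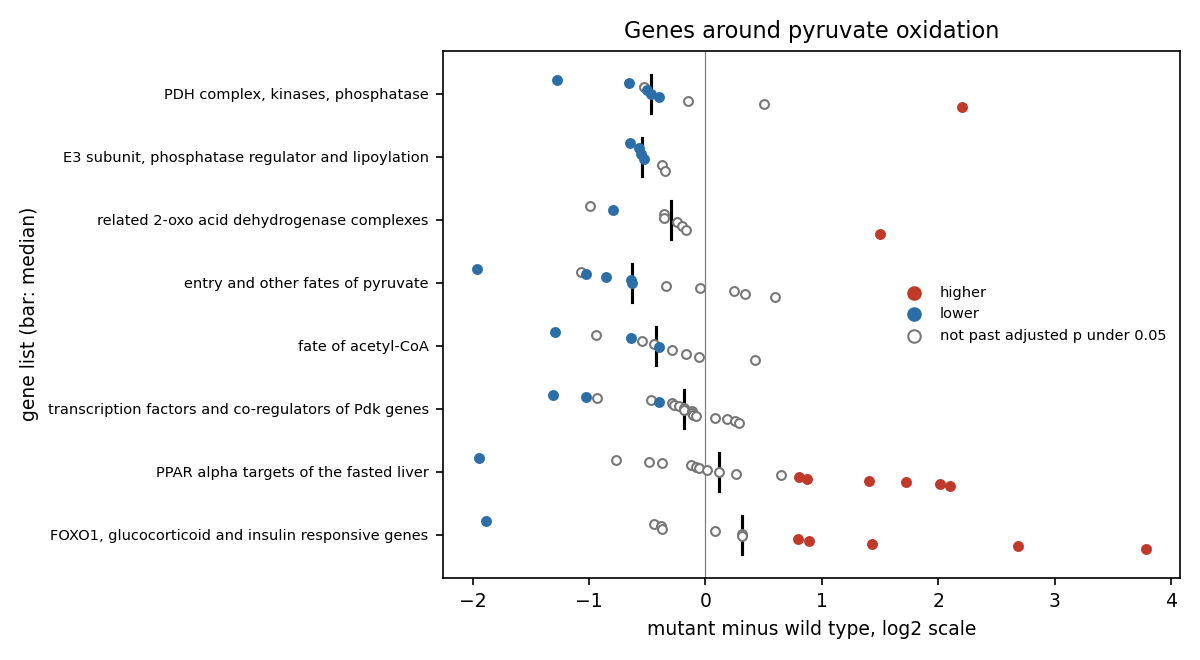
Mutant minus WT difference on the log2 scale (horizontal axis) for every measured gene of the complex and of the 7 lists around it, with red for genes that rose, blue for genes that fell, open points for genes that did not pass, and a bar at each median. The lists of the complex, lipoylation, pyruvate and acetyl-CoA have medians from -0.63 to -0.42, and the PPAR alpha and FOXO1 lists have medians of 0.12 and 0.32. The median over all rows was 0.08.

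Over the 7 lists together, 12 of 81 genes rose and 18 fell, beside the 6.52% and 8.93% of all rows. The lists hold genes of linked pathways chosen with earlier results of these data known. Without WT replicates 2 and 3 the counts were 7 and 6, and in the values as deposited 11 genes fell.

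The named genes whose values followed Pdk4 most closely over the 8 mice were Tmem64, Gem, Acot5, 8030431J09Rik and Cdkn1a, out of 19523 compared. The Pearson likeness ran from 0.977 to 0.984 and is a description of these 8 arrays, since all 5 share the split between genotypes with Pdk4. Gem, a small GTPase gene, rose by 1.23 ± 0.15 and ranked the 8 mice in the same order as Pdk4. Acot5, a peroxisomal acyl-CoA thioesterase gene, rose by 0.89 ± 0.20, and the cell cycle inhibitor gene Cdkn1a by 3.79 ± 0.61 (adjusted p = 0.00233, 0.0218 and 0.00635 for Gem, Acot5 and Cdkn1a). Tmem64 rose by 0.40 ± 0.10 and 8030431J09Rik by 2.02 ± 0.44 (adjusted p = 0.0399 and 0.0204). Removing 1 mouse ended the call of Tmem64 for each mouse but mutant replicate 4, of Acot5 for mutant replicates 1 and 2 and WT replicates 1 and 3, and of 8030431J09Rik for mutant replicates 1 to 3 (adjusted p = 0.0507 to 0.105). The same 3 gave adjusted p = 0.135, 0.0983 and 0.0557 without WT replicates 2 and 3 together.

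Markers of other tissues varied between the samples. Because muscle is known to be rich in Pdk4 and Pdk2, 8 skeletal or cardiac muscle genes were followed, of which 0 passed in limma after adjustment (8 of the 8 had an unadjusted limma p under 0.05) and all 8 had lower means in mutants, with differences of -3.26 to -2.19. The 3 with the smallest limma p, Acta1, Ckm and Tnnc2, differed by -3.07, -2.98 and -3.01 (adjusted p = 0.0736, 0.0799 and 0.0809), and they passed without mutant replicate 4 (adjusted p = 0.0259, 0.0286 and 0.0263). The mean over the 8 genes was -2.65, -3.41, -1.16 and 0.45 in mutant replicates 1 to 4, against -0.28, 1.97, 0.41 and 2.41 in WT replicates 1 to 4. Mutant replicate 4 lay above WT replicates 1 and 3, so that the groups overlapped in this mean, which they did not in Pdk4. Within the WT group the mice with the higher muscle means, replicates 2 and 4, were also the 2 with the higher Pdk4 values, whereas mutant replicate 2, with the lowest muscle mean, had the highest Pdk4 value. Pdk2, at -0.50 ± 0.10, differed in the same direction as the muscle genes. Replicate 4 had the highest muscle mean of each group, and its Pdk2 value was the highest in WT (0.39) and the lowest in mutants (-0.33). The part of muscle RNA in the Pdk values was not tested. As no levels are given, whether a marker was near background could not be seen.

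**Figure D5:**
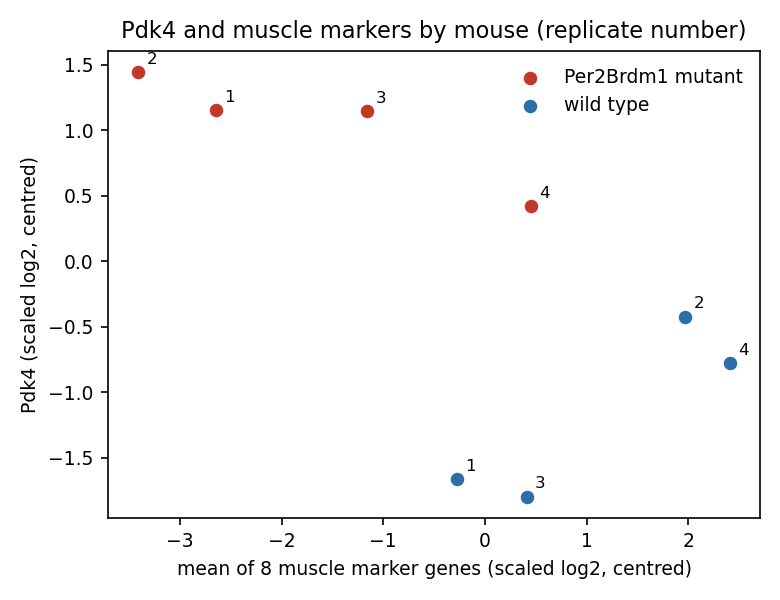
Scaled and centred log2 value of Pdk4 (vertical axis) against the mean of 8 muscle marker genes (horizontal axis) in Per2Brdm1 mutants (red) and WT mice (blue), with the replicate number beside each point. The mutants lie at muscle means from -3.41 to 0.45 and Pdk4 values from 0.42 to 1.45, and the WT mice at muscle means from -0.28 to 2.41 and Pdk4 values from -1.80 to -0.42.

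Among lists of other cell types the Kupffer cell list had the most genes that passed. Of its 7 genes 6 rose, with the smallest p-values for Vsig4 (1.17 ± 0.15), Cd163 (1.52 ± 0.20) and Clec4f (1.13 ± 0.17) and a difference of 2.16 ± 0.33 for Marco, named after its value was seen, and the list mean was 0.48 to 0.86 in mutants, against -0.87 to -0.35 in WT mice. Of 6 stellate cell or fibroblast genes 4 rose and 1 fell, with the matrix genes Col3a1 at 0.86, Lum at 0.54 and Col1a1 at 1.12. The one that fell was Lrat, the retinol-esterifying enzyme gene of stellate cells (-0.45 ± 0.11, adjusted p = 0.0313, named after its value was seen), whose call was kept without mutant replicate 4 and lost without any other single mouse (adjusted p = 0.0521 to 0.0839) and as deposited (adjusted p = 0.0973). The list means were 0.05 to 0.44 in mutants and -0.44 to -0.06 in WT mice. Of 6 endothelial genes 1 rose, Stab1 (0.64), while Lyve1 (0.84, adjusted p = 0.143) and Cdh5 (0.30, adjusted p = 0.169) did not pass. Among 7 genes of stomach, squamous epithelium or pancreas 3 fell, Crct1 (-7.32), Krt4 (-6.58) and Krt13 (-4.17), and 1 rose, Tff1 (2.33, named after its value was seen), with list means of -2.40 to -0.45 in mutants and 0.48 to 2.20 in WT mice. Of 4 adipocyte genes 0 passed in limma, with 0 at an unadjusted p under 0.05, and Adipoq, Plin1 and Lep differed by -1.51, -1.29 and -0.79 (adjusted p = 0.195, 0.196 and 0.212). Their list means were -1.60 to 0.55 in mutants and -0.31 to 1.23 in WT mice. Of 6 hepatocyte genes 1 fell, Ttr (-0.71 ± 0.11, adjusted p = 0.00587), while Hnf4a (0.29, adjusted p = 0.132, and 0.0458 in the values as deposited) and Apoa1 (0.33, adjusted p = 0.231) did not pass, and list means were -0.14 to 0.03 in mutants and -0.03 to 0.12 in WT mice. In whole liver, fewer cells of a type and less RNA per cell cannot be told apart, and the part of these cell types in the member genes was not tested. Without WT replicates 2 and 3 the calls of Col3a1, Lum, Col1a1, Lrat, Stab1 and Tff1 were lost (adjusted p = 0.0675 to 0.152). On removal of 1 mouse Lum did not pass for mutant replicate 2 and WT replicate 3, Col1a1 for mutant replicate 2 and WT replicates 2 and 3, and Stab1 for mutant replicates 1 and 2 and WT replicate 2 (adjusted p = 0.0538 to 0.0617).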

How the data were processed

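Livers of 4 Per2Brdm1 mutants and 4 wild-type animals were measured on 1-colour Agilent arrays. Groups and replicate numbers were taken from the sample titles, which label the mutants as mPER2 KO. The deposited values were normalised by the authors by a method that is not stated in the sources used here, and were read as log2 values, with the base and direction inferred from the values. Each probe's median over the 8 columns was 0 to within 5e-07, and 0 columns were left unused. After removal of 78 control features from the 41252 probes, the remaining 41174 were scaled to a common 75th percentile. The annotation gave 1 symbol to 32664 of them, more than 1 to 45 and no symbol to 8465. Probes of a gene were averaged to 19532 named genes, which with 8510 single probes made 28042 rows. Mutants were compared with wild types by limma (version 3.58.1, R 4.3.3, two-sided moderated test from lmFit and eBayes), with Benjamini-Hochberg adjustment over all rows, and repeated over all probes. Permutation tests used scipy 1.17.1 and Python 3.11.15, and figures matplotlib 3.10.9. The members, lists, tests and alternatives were chosen with earlier results of these data known. All members were named, with the 3 genes of smallest p in each list and the 5 genes most like Pdk4 over the 8 arrays. Besides the 10 members there were 7 pathway and 7 marker lists, and genes of a list that no probe matched were left out. The alternatives were no further scaling, a common median, quantile scaling, robust variance, weights per array, the replicate number as a block, the control features as a covariate, single probes, an unadjusted p under 0.05 per probe as the study's design text has it without naming the test, and leaving out each mouse or wild type replicates 2 and 3 together. The fit was tested on simulated data of 28042 rows, in which it recovered 48 of 100 genes given a change of 1 log2 unit and 75 of 100 given 2 units, with 7 false calls beside them, and 0 rows were called where nothing had been changed. The simulated noise was independent between rows, and far fewer rows were changed than the 4333 that passed in the data. These rates therefore need not hold for the fit reported.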

Additional observations from a re-analysis of the deposited data

Results flagged for a closer look

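A mouse was singled out where its gap to the nearest mouse of its group exceeded 0.829 of the range of that group. Chance gives about 1 in 20 groups, and 13 of 142 groups of 4 mice were marked, gene means and their own probes being counted separately. Among the members, mutant replicate 1 was lowest for Pdha1 at -0.45, and also for its probe A_52_P581435 at -0.53, against -0.21 to -0.14 in the other mutants. For the other Pdha1 probe, A_51_P321391, wild type replicate 1 was lowest at 0.035. Wild type replicate 4 was highest for Pdhx at 1.34, through probe A_52_P539454 at 3.58. For the Pdhb probe A_52_P568792 replicate 4 was highest in both groups, at -0.25 in mutants and 0.65 in wild type.

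Among the other named genes, Fkbp5 was highest in mutant replicate 2 at 1.08, Lep in mutant replicate 1 at 0.16 and Krt4 in mutant replicate 1 at -2.23. Col3a1 was highest in mutant replicate 4 at 0.66 and lowest in wild type replicate 2 at -0.99. Lyve1 was lowest in wild type replicate 3 at -1.62.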

How the results depend on the processing

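Pdk1, Pdk4 and Dlat passed in the same direction under each of 16 alternatives, with differences of -1.41 to -1.15, 1.997 to 2.454 and -0.78 to -0.54, and Pdp1 and Pdhx passed under none of them. The Pdk2 call was lost under 4 of the 16, the Pdhb call under 9 and the Pdha1 call under 14. Pdk3 changed sign without wild type replicates 2 and 3, to 0.028, Ppara as deposited, to 0.0086, and Cpt1a as deposited, to 0.067, with a range of -0.13 to 0.016 when 1 mouse was left out. The number of member genes that fell was 5, and it was 3 in the values as deposited, 2 without wild type replicates 2 and 3, 3 when every probe of a gene had to pass alone, and 2 to 4 when 1 mouse was left out. The number of member probes that fell was 8, against 4 without wild type replicates 2 and 3 and 6 to 7 when 1 mouse was left out. In the pathway lists 12 genes rose and 18 fell, against 7 and 6 without wild type replicates 2 and 3, 11 lower as deposited, and 8 to 13 higher and 10 to 14 lower without 1 mouse. Over all rows 1828 were higher and 2505 lower. These counts were 879 and 887 without wild type replicates 2 and 3, 1537 lower as deposited, and 1314 to 1703 and 1542 to 1993 without 1 mouse. Among rows that passed, the share higher was 42.2% in the fit reported and 61.4% as deposited. The values as deposited differ from those of the fit reported only by the shift of each array. This shift lowered every difference by the same amount, the median over all rows from 0.20 to 0.08. The cause of the other changes was not tested. The fits with fewer mice have less power by construction, while the fit as deposited kept all 8 mice. Without wild type replicates 2 and 3, lower power and their differing control features cannot be told apart. The sample titles do not say whether the replicate numbers pair the mice. Deviations from the group means correlated by -0.10 to 0.10 between mice of the same number. These correlations run over all rows and cannot exclude a pairing that acts on some genes. With the replicate block, 2 member genes, 4 member probes, 6 pathway genes and 1019 rows fell, 7 pathway genes and 1011 rows rose, and Pdk1, Pdk4 and Dlat passed (adjusted p = 0.0176, 0.0333 and 0.0384). For 67 of the other named genes, 883 of 1072 comparisons with an alternative kept the direction and the same side of the threshold. This number includes genes that passed in neither fit and so had no call to lose. Of the rest, 176 lost the call, 10 gained one and 3 changed sign. Signal over background is not given, so dim probes could not be set aside.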
